A study of Equus caballus with 9 samples.

Results

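In horse bone marrow stromal cell cultures, 46 of the 13571 genes tested (0.339%) were ordered CDM above MSC above ADM without overlap: every library of cells taken towards cartilage (CDM) lay above every library of undifferentiated cells (MSC), and every MSC library lay above every library of cells taken towards fat (ADM). The members were chosen from read counts in all 9 libraries, after removal of genes with low counts and after TMM scaling, which makes libraries comparable through the trimmed mean of their gene-wise ratios. CPM here means counts divided by the scaled library size, on the common per-megaread scale. The order itself is therefore the selection and not a finding, and no test of it is given. With library totals as the only scaling the order was found in 1 gene, so the set depends on how the libraries are made comparable; the values for this are given below.

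RNA selected for poly(A) tails was sequenced in 3 libraries each of MSC, ADM and CDM. MSC are mesenchymal stromal cells grown from equine bone marrow, and the labels give ADM as adipocytes and CDM as chondrocytes obtained from such cells. All 3 groups come from the same tissue, and no other treatment, genotype, age or differentiation time is stated. Nothing in the labels says that replicates came from separate cultures or horses, so the spread between libraries may be technical.

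Marrow stromal cells can be turned into several connective tissue lineages in culture. Chondrogenesis is driven by SOX9 and its partners and leads to secretion of type II collagen and aggrecan, the main components of cartilage matrix. Adipogenesis is driven by PPARG with C/EBP factors and leads to lipid storage. The files list genes by Ensembl ID without symbols, and 0 of the 30371 IDs matched the gene table used here. The roles of the members are therefore not given, the labelled cell types were not checked against their markers, and 4 members are given by ID, the others by their values.

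Libraries held between 17260899 and 39331930 reads in genes. CDM replicate 2 stood apart: it was the smallest, its most abundant gene held 36.8% of gene counts, against 2.36% to 10.6% for the most abundant gene of each other library, and its ambiguous reads made up 4.47%, against 1.36% to 1.74%. Its TMM factor was 0.525, against 0.904 to 1.41 elsewhere. The part of these properties in the results was not tested, and results that rest on this library are given with and without it.

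The members were mostly genes of moderate level with small steps between the groups. Their mean over the 9 libraries ranged from 0.710 to 240.1 CPM with a median of 32.8, against a median of 16.7 over all genes tested. Of the 46, 33 lay between 10 and 100 CPM, 6 lay at 100 CPM or above, 6 between 1 and 10 and 1 below 1. The ratio of the CDM to the MSC mean had a median of 1.64 and quartiles of 1.42 and 2.26. The ratio of the MSC to the ADM mean had a median of 1.34 and quartiles of 1.23 and 1.44. In 16 members the CDM mean was at least 2-fold the MSC mean, and in 5 the MSC mean was at least 2-fold the ADM mean.

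Without CDM replicate 2 the step from MSC to CDM was smaller. The median ratio of the CDM to the MSC mean was then 1.33, the quartiles were 1.25 and 1.45, and 3 members reached 2-fold. On the log2 scale, with 2 as the prior count and log2 CPM averaged within each group, the median CDM minus MSC was 0.66 with all libraries and 0.41 without CDM replicate 2. Over all genes tested these medians were -0.019 and -0.0012. The median MSC minus ADM of the members was 0.42, against -0.023 over all genes. The CDM step was the larger of both in 39 members with all libraries and in 23 members without CDM replicate 2. Over all genes tested, CDM minus MSC was the larger in 6912 of 13571 (50.9%) with all libraries and in 6894 without CDM replicate 2.

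**Figure D1:**
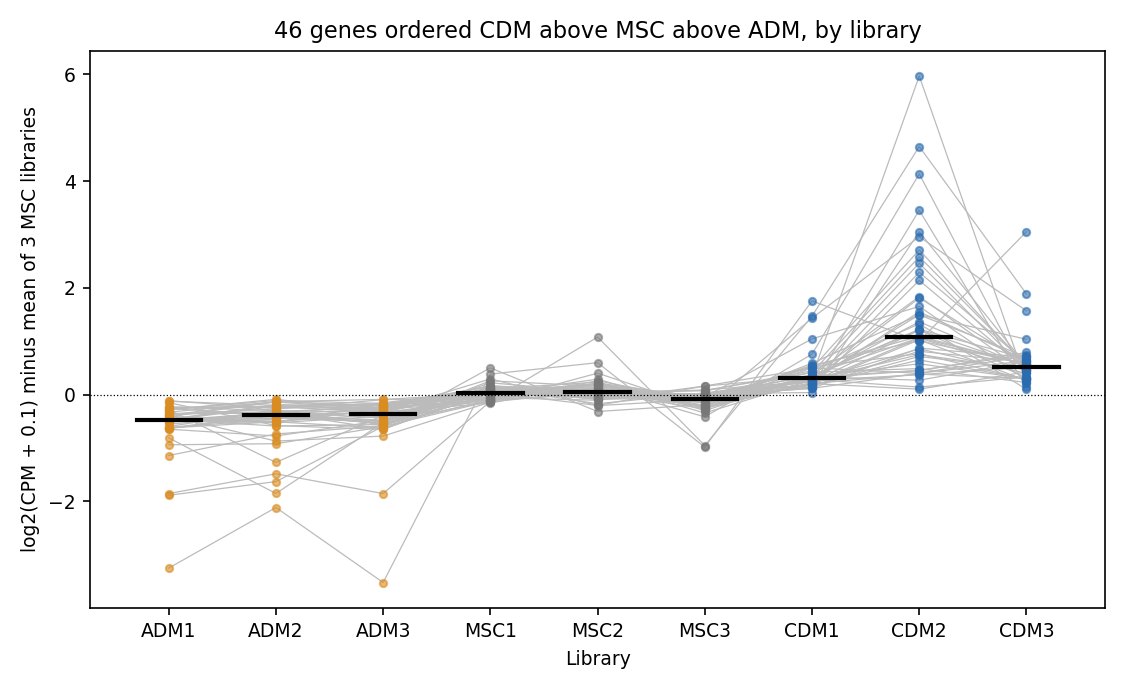
Level of each of the 46 members in each library, as log2(CPM + 0.1) minus the mean of the 3 MSC libraries on that scale; points are genes, grey lines join the values of a gene and black bars are medians. The MSC libraries lie close to 0, the ADM libraries below and the CDM libraries above, as the selection requires, with the widest scatter in CDM replicate 2.

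Library by library, the members lay a median of 0.32 log2 units above the MSC mean in CDM replicate 1, 1.08 above in CDM replicate 2 and 0.52 above in CDM replicate 3. They lay at -0.47, -0.38 and -0.36 in ADM replicates 1, 2 and 3. In MSC replicates 1, 2 and 3 the medians were 0.038, 0.057 and -0.081. The 3 ADM libraries were thus close to each other, whereas the CDM libraries differed by more than the whole step from MSC to CDM replicate 1. Over all genes tested the corresponding medians stayed between -0.15, in CDM replicate 2, and 0.059, in ADM replicate 3.

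**Figure D2:**
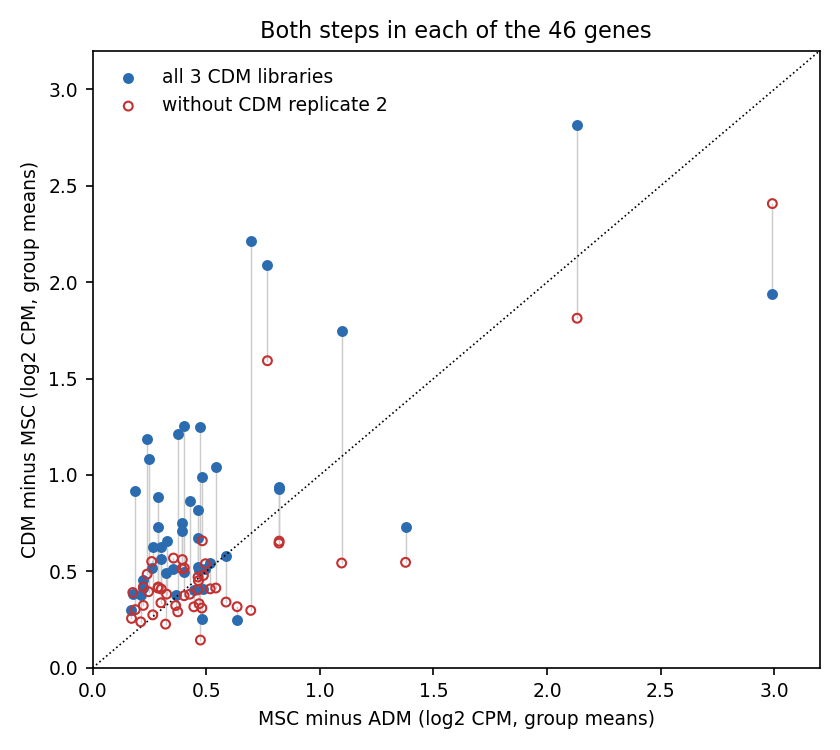
Difference of group means of log2 CPM between CDM and MSC (vertical axis) against that between MSC and ADM (horizontal axis) for each of the 46 members. Filled points use all 3 CDM libraries, open points leave out CDM replicate 2, grey lines join both values of a gene and the dotted line marks equal steps; 39 filled and 23 open points lie above the line.

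ENSECAG00000022739 combined a large difference on both sides. Its level was 42.0, 24.9 and 103 CPM in CDM replicates 1, 2 and 3, 16.2, 18.8 and 6.20 CPM in the MSC replicates, and 1.21, 2.78 and 0.988 CPM in the ADM replicates. CDM replicate 3 was the highest library, CDM replicate 2 the lowest of its group, and MSC replicate 3 lay well under the other MSC libraries but still above every ADM library. The means were 56.7 ± 41.2 CPM in CDM, 13.7 ± 6.64 in MSC and 1.66 ± 0.977 in ADM (SD, n = 3 each). The CDM mean was 4.13-fold the MSC mean, or 5.29-fold without CDM replicate 2 and 2.44-fold without CDM replicate 3. The MSC mean was 8.27-fold the ADM mean, or 12.5-fold without ADM replicate 2. Counts were 225 to 3261 in CDM, 215 to 708 in MSC and 30 to 95 in ADM. It was chosen for its step from MSC to CDM, and its step from MSC to ADM, 2.99 on the log2 scale, was also the largest of all 46 members on that scale.

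ENSECAG00000017538 was chosen for its step from MSC to ADM. It was at 10.1, 13.2 and 9.96 CPM in MSC replicates 1, 2 and 3, against 2.90, 3.48 and 7.24 CPM in the ADM replicates and 15.9, 23.5 and 16.3 CPM in the CDM replicates. ADM replicate 3 stood well above the other ADM libraries and nearest to MSC. The means were 11.1 ± 1.83 CPM in MSC, 4.54 ± 2.36 in ADM and 18.6 ± 4.31 in CDM (SD, n = 3 each). The MSC mean was 2.44-fold the ADM mean, and the CDM mean was 1.68-fold the MSC mean, or 1.45-fold without CDM replicate 2.

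The other members given by ID were high in CDM replicate 2 and much closer to MSC in the other CDM libraries. ENSECAG00000017196 was at 0.831, 45.8 and 0.760 CPM in CDM replicates 1, 2 and 3, 0.607, 0.583 and 0.721 CPM in MSC, and 0.504, 0.205 and 0.461 CPM in ADM. The counts were 24, 415 and 24 in CDM, 21, 22 and 25 in MSC, and 20, 7 and 14 in ADM. Its CDM mean of 15.8 ± 26.0 CPM (SD, n = 3) was 24.8-fold the MSC mean of 0.637 ± 0.0739, but 1.25-fold without CDM replicate 2. The step that chose this gene, and its place among members with a CDM mean of at least 5 CPM, thus rest on 1 library, and the SD of the CDM group exceeded its mean.

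ENSECAG00000007758 had a like profile. It was at 3.19, 34.0 and 2.31 CPM in CDM replicates 1, 2 and 3, 2.22, 2.07 and 1.36 CPM in MSC, and 1.01, 0.439 and 1.25 CPM in ADM. The counts were 92, 308 and 73 in CDM, 77, 78 and 47 in MSC, and 40, 15 and 38 in ADM. ENSECAG00000007758 is thus a gene of low counts outside CDM replicate 2. It was chosen for its step to ADM among members with a CDM mean of at least 5 CPM, a level it reached through CDM replicate 2, since its CDM mean was 2.75 CPM without it. The step to ADM was such that the MSC mean of 1.88 ± 0.463 CPM was 2.09-fold the ADM mean of 0.900 ± 0.417 (SD, n = 3 each). The CDM mean was 7.0-fold the MSC mean with all libraries and 1.46-fold without CDM replicate 2.

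**Figure D3:**
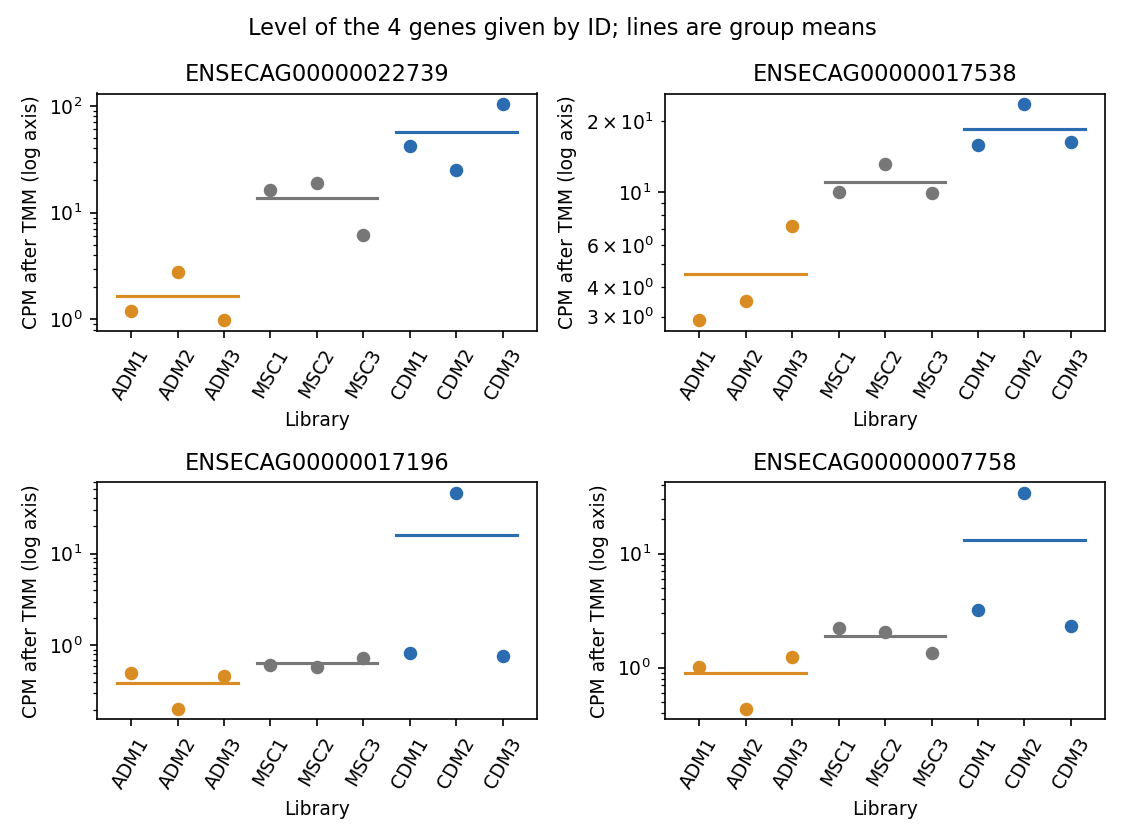
CPM after TMM scaling on a log axis in each library for the 4 members given by ID; points are libraries and lines are group means. ENSECAG00000022739 is highest in CDM replicate 3, whereas ENSECAG00000017196 and ENSECAG00000007758 are far above MSC in CDM replicate 2 alone, at 45.8 and 34.0 CPM. ENSECAG00000017538 is also highest in CDM replicate 2. Without that library its CDM mean is 1.45-fold the MSC mean, close to the 1.46-fold of ENSECAG00000007758.

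Only 3 members had a difference of at least 1 on the log2 scale on both sides. ENSECAG00000022739 and ENSECAG00000007758 were among them. Without CDM replicate 2 they numbered 2, because ENSECAG00000007758 then had a CDM minus MSC of 0.54. The remaining one was a gene of low level, with 26, 81 and 39 counts in CDM replicates 1, 2 and 3, 8, 25 and 3 in MSC, and 0, 1 and 0 in ADM. No ratio to ADM is given for it, because the ADM counts are too few.

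The member with the highest CDM mean, given without ID, was at 255, 477 and 276 CPM in CDM replicates 1, 2 and 3, 240, 136 and 149 CPM in MSC, and 88.2, 89.5 and 111.6 CPM in ADM. MSC replicate 1 lay close under the lowest CDM library, and the means differed 1.92-fold between CDM and MSC and 1.81-fold between MSC and ADM. Its counting intervals, as defined in the next paragraph, did not overlap at either border. Its CDM mean of 335.9 CPM was 265 without CDM replicate 2. The member with the highest mean over all 9 libraries, 240.1 CPM, was another gene, at 272, 299 and 379 CPM in CDM, 268, 190 and 206 in MSC, and 186, 186 and 176 in ADM, and its intervals overlapped at both borders.

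The borders between the groups were narrow. The lowest CDM library was a median of 1.07-fold above the highest MSC library, with a range of 1.01 to 2.29, and the lowest MSC library was a median of 1.09-fold above the highest ADM library, with a range of 1.002 to 2.96. In 38 of 46 members at least 1 border was 1.1-fold or less. Exact Poisson 95% intervals, which cover counting error only, did not overlap across the CDM border in 13 members, across the ADM border in 15, across both in 6 and across neither in 24. Of all genes tested, 194 were clear in this way at the CDM border, 780 at the ADM border, 6 at both and 12603 at neither. A gene clear at both borders has the order and is thus a member, so these numbers partly follow from the selection. ENSECAG00000022739 and ENSECAG00000017538 were clear at both borders, and ENSECAG00000017196 and ENSECAG00000007758 at neither. The 6 clear at both became 10 without MSC replicate 2, 13 without MSC replicate 3, 12 without ADM replicate 3 and 13 without CDM replicate 1, where fewer libraries set the borders.

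Just inside the rule, 1 member had its lowest MSC library at 51.7 CPM and its highest ADM library at 51.6 CPM, and another had its lowest CDM library at 50.26 and its highest MSC library at 50.002 CPM. Just outside, 1 gene had its lowest MSC library at 7.53 and its highest ADM library at 7.54 CPM. In all, 97 genes missed the order by 1.1-fold or less, against the 38 members that met it by no more than that.

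CDM replicate 1 most often set the CDM border. It was the lowest CDM library in 32 of 46 members (69.6%), against 32.7% of all genes tested, and the highest in 0, against 35.2%. CDM replicate 2 was the highest CDM library in 37 members (80.4%), against 39.0% of all genes. In 13 members it was at least 2-fold above both other CDM libraries (28.3%, against 20.5% of all genes), and in 5 at least 5-fold (10.9%, against 7.07%). The rule does not use the order inside a group, but it drops genes in which any CDM library falls to the MSC level. CDM replicate 2 was the lowest CDM library in 45.1% of all genes, against 10.9% of members. The rule can thus shift these shares by itself, and nothing is read from their distance to all genes. All genes also share these libraries and members are not replicates, so these shares are a description without a test.

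MSC replicate 3 was the lowest MSC library in 25 members (54.3%), against 37.3% of all genes, and the highest in 6 (13.0%), against 37.7%. In 15 members MSC replicate 3 and CDM replicate 1 were both the lowest of their groups (32.6%, against 13.5% of all genes), and in 0 both were the highest (against 15.4%). Each was by itself often the lowest in members (54.3% and 69.6%), and whether they were low together beyond that was not tested. Among the ADM libraries the highest one was replicate 1 in 9 members, replicate 2 in 19 and replicate 3 in 18. The rule can shift the shares of MSC and ADM libraries in the same way as those of CDM libraries.

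**Figure D4:**
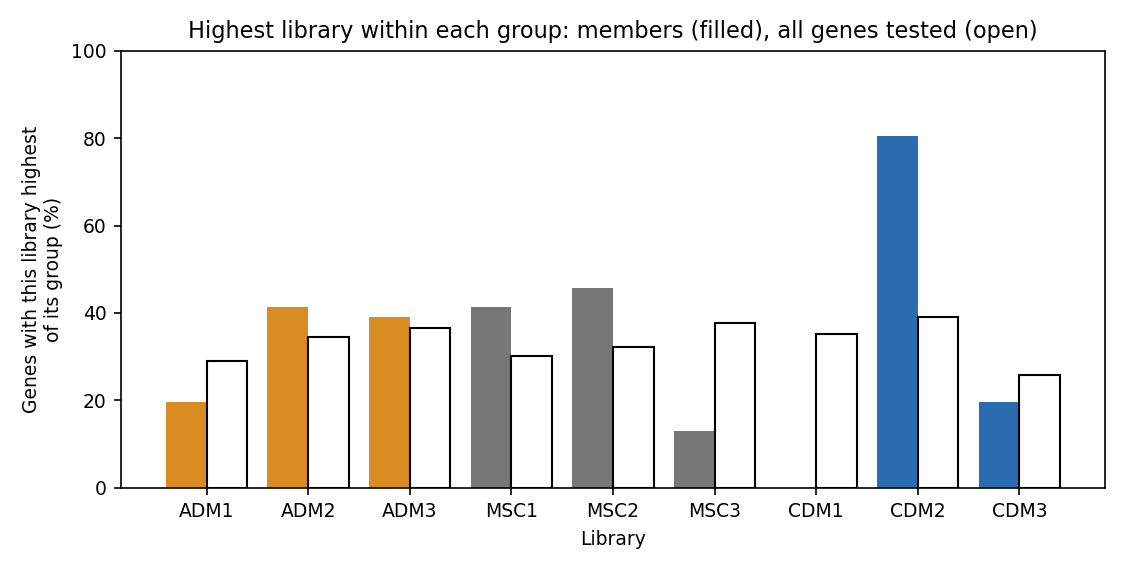
Share of genes, in percent, in which a library is the highest of its own group of 3, for the 46 members (filled bars) and for all genes tested (open bars). CDM replicate 2 is the highest CDM library in 80.4% of members and CDM replicate 1 in 0%. The rule that chose the members can shift their shares by itself.

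The members also varied little inside a group. The median SD of log2 CPM was 0.15 in MSC, against 0.47 over all genes tested, 0.14 against 0.26 in ADM, and 0.45 against 0.82 in CDM. A rule that asks for groups without overlap favours genes of small spread, so this is a property of the selection. Even so, in 31 members the range of the CDM libraries on the log2 scale exceeded the difference between the CDM and MSC means, and in 8 members the range of the MSC libraries exceeded the difference between the MSC and ADM means.

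For context, 569 genes (4.19% of those tested) had every CDM library above every MSC library, 1822 (13.4%) had every ADM library below every MSC library, and 1500 (11.1%) had every CDM library above every ADM library. The 46 members were 8.08% of the first list and 2.52% of the second, and these lists share the MSC libraries. The reverse order, ADM above MSC above CDM, held in 66 genes, MSC above ADM above CDM in 35, MSC above CDM above ADM and ADM above CDM above MSC in 23 each, and CDM above ADM above MSC in 18.

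In the fit of all 9 libraries with edgeR's quasi-likelihood test, 0 members passed an adjusted p of 0.05 as higher in CDM than in MSC (0% of all genes did), 0 as lower in ADM than in MSC (0.0147% of all genes) and 0 as higher in CDM than in ADM (0% of all genes). At an unadjusted p under 0.05 the members numbered 22 (6.15% of all genes), 6 (6.12%) and 43 (11.7%) in these comparisons. DESeq2 called 0 (0.346% of all genes), 2 (2.38%) and 35 (4.36%). The rule used all of these contrasts, so nothing is read from the counts.

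The set was narrower or wider under other scalings. With DESeq2 size factors 58 genes had the order, the 46 members among them. With upper-quartile factors 38 genes had it, of which 31 were members. An alternative chosen after seeing the data left 54 genes out of every library total, those among the 20 most abundant of any library. The order then held in 18 genes, of which 9 were members. With plain library totals it held in 1 gene, a member with 4 to 34 counts per library. The TMM factor of 0.525 for CDM replicate 2 corresponds to 0.485 with DESeq2 size factors and 0.581 with upper-quartile factors.

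**Figure D5:**
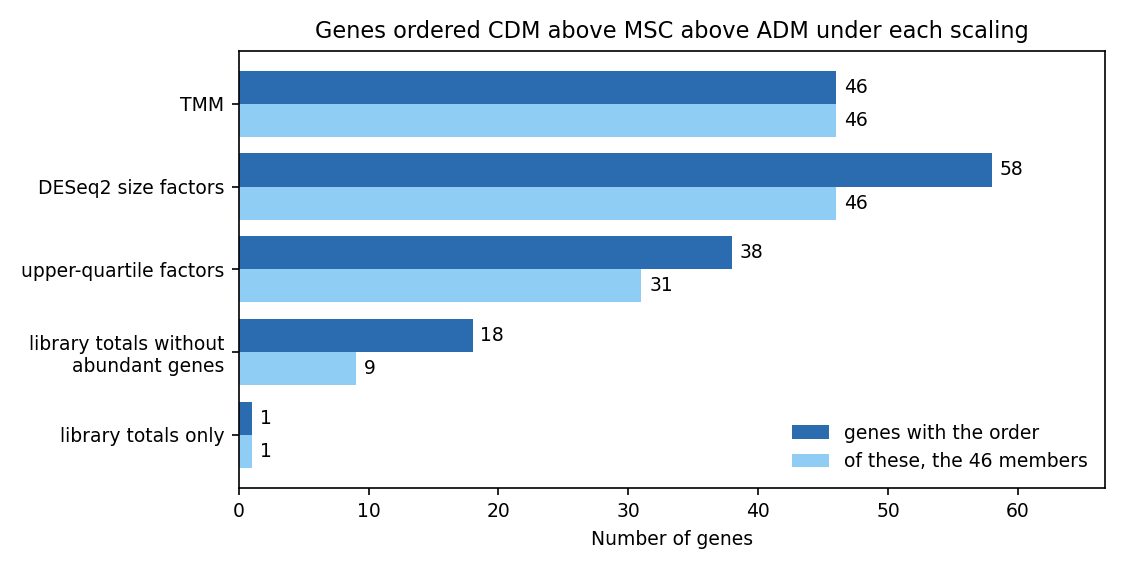
Number of genes ordered CDM above MSC above ADM under each of 5 scalings (dark bars) and how many of them are among the 46 members found with TMM (light bars). The count runs from 58 with DESeq2 size factors to 1 with library totals only.

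Under plain library totals the members' part of all gene counts was 0.272%, 0.274% and 0.162% in MSC replicates 1, 2 and 3, 0.138%, 0.147% and 0.162% in ADM, and 0.223%, 0.228% and 0.331% in CDM. Only CDM replicate 3 lay above all MSC libraries in this sum. In 43 members CDM replicate 1 was then not above every MSC library, as was the case for CDM replicate 2 in 31 and for CDM replicate 3 in 17. The MSC mean stayed above the ADM mean in all 46, and the CDM mean above the MSC mean in 28.

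Plain library totals also moved all genes. The median CDM minus MSC over all genes tested was -0.55 on the log2 scale with them, against -0.019 with TMM, and the median MSC minus ADM was 0.18, against -0.023. A scaling shifts every gene of a library alike, so the distance of the members from these medians is nearly fixed by construction and says nothing about their stability.

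Leaving out a library makes the rule easier to meet, and the number of ordered genes was 102, 110 and 109 without MSC replicates 1, 2 and 3, 88 without ADM replicate 3, 320 without CDM replicate 1 and 85 without CDM replicate 2. Between 42 and 46 members kept the order over all 9 such fits, and 46 did without CDM replicate 2. A member can lose the order there only through TMM factors computed anew, so these counts follow from the selection.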

How the data were processed

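Each library has 1 deposited table of raw, unscaled read counts by gene ID. Per the submitters' processing notes, the build was equCab3 and the tools were STAR 2.7.5c, HTSeq 1.99.2, FastQC 0.11.9 and DESeq2 3.16; settings, annotation release and strand mode are, in the sources used here, not given, so overlapping, antisense or near-identical genes may share reads. The 5 summary lines per table (24.4% to 36.4% of reads) were left out.

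The analysis used edgeR 4.0.16 in R 4.3.3: filterByExpr with the 3 groups, TMM, and a quasi-likelihood fit with 1 coefficient for each group over all 9 libraries (6 residual degrees of freedom), 2-sided, Benjamini-Hochberg adjusted over 13571 genes. DESeq2 1.42.0 was an alternative. The procedure was run on simulated counts as a check of the code. The simulated steps were larger than the median steps of the members. Success was required only with a smaller spread between libraries than in these data, so no assurance for these data follows. Other scalings, filters, a prior count of 0.5 and left-out libraries were tried.

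The 4 IDs are the 2 members with the largest log2 CDM minus MSC and the next 2 by MSC minus ADM, among the 44 members with a CDM mean of at least 5 CPM and at least 10 counts in every MSC library. The members and lists were chosen with earlier results of these data known. The gene lists by symbol could not be matched to IDs and were not used.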

Additional observations from a re-analysis of the deposited data

Results flagged for a closer look

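In 46 genes every CDM library lay above and every ADM library below all MSC libraries, so both differentiated groups lay on opposite sides of the undifferentiated cells. The rule that chose the genes asks for this. The tests between the groups, given above, used the same contrasts as the rule, so nothing is read from them for these genes.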

How the results depend on the processing

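The number of ordered genes, 46 with TMM, was 1 with library totals only, 18 with totals that leave out abundant genes (chosen after seeing the data), 246 without MSC replicate 3 and CDM replicate 2 together, and 50 to 320 when each library was left out in turn; fewer libraries make the rule easier to meet. It stayed within 1.5 times of 46 under DESeq2 size factors, upper-quartile factors and both other filters, and 40 members kept the order with no filter as well as with at least 50 counts in 3 libraries. The median CDM minus MSC of the members was 0.11 with library totals and 0.41 to 0.80 over the left-out libraries, and the median MSC minus ADM was 0.62 with library totals, 0.60 without abundant genes and 0.38 to 0.46 over the left-out libraries. Members clear of counting error at both borders, 6 with TMM, numbered 0 with library totals, 0 without abundant genes, 1 with upper-quartile factors, 14 without MSC replicate 3 and CDM replicate 2, and 7 to 13 over the left-out libraries. Members passing in edgeR numbered 0 in all 3 comparisons under each planned scaling, filter, single left-out library and fit of 2 groups. Of all genes, counted here both ways, at most 1.38% passed (ADM against MSC, 2-group fit), and 1.23% without CDM replicate 2. Without MSC replicate 3 and CDM replicate 2, members passing numbered 2 between ADM and MSC (4.35%, 5.7% of all genes). Between CDM and ADM 1 passed (2.17%, 0.339%). DESeq2 called 2 (4.35%, 4.42%) and 35 (76.1%, 7.1%), against 2.38% and 4.36% of all genes in their direction, on contrasts the rule used. No log2 difference of the 4 genes given by ID changed sign under any alternative run. With libraries left out or a block for the replicate number, this follows largely from the selection, which orders every library. Same-numbered libraries did not deviate together (correlations across genes of -0.31 to 0.012 in 9 pairs, 0 over 0.1). In both other groups 0 were closest to their own number. With 3 per group this cannot exclude pairing. With the replicate block, 0 members and 0 of all genes passed in each comparison, and 167 genes had the order within each replicate number. Except for fewer libraries and the scaling itself, the cause of these shifts was not tested. Depth limits the 5 members with fewer than 50 counts in at least 1 library, a trait of 5267 of the 13571 genes tested. ENSECAG00000022739, ENSECAG00000017196 and ENSECAG00000007758 are among these members.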
